A study of Homo sapiens with 15 samples.

Results

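The last 2 Mb of the long arm of chromosome 9 hold 71 protein-coding genes in GENCODE 44 on GRCh38, counted as genes that end above position 136394717 on a chromosome of 138394717 bases. Of these, 69 were found in the count table, and 67 were taken as the genes at the end of 9q, without PTGDS and NOTCH1, out of 19629 protein-coding genes in the table. The end of 9q was chosen by measured values, because genes there were upregulated in senescent against young cells with the empty vector, so that contrast is described below without a test. Reads on 47 of the 67 genes were frequent enough for testing, and 20 genes fell below the filter on low counts.

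The RNA came from MRC-5, a widely distributed line of fibroblasts from human fetal lung with a limited lifespan, grown at low oxygen and sequenced as 15 libraries in 5 groups of 3. Young cells at population doubling (PD) 30 carried either an empty GFP lentivirus (young empty) or the same virus with TRF2 (young TRF2), and both received a control siRNA. A further young group received siLMNB1, a siRNA against Lamin B1, and its count columns name the empty vector. Senescent cells were infected before they reached senescence with the empty virus (senescent empty, PD 71) or the TRF2 virus (senescent TRF2, PD 75) and also received the control siRNA once they had stopped dividing. All groups come from this single line, and TRF2 was expressed from a lentivirus and not from its own gene. The labels mark the 6 senescent libraries and 0 of the 9 young libraries as reanalysed data of an earlier record, so deposit and senescence cannot be told apart. The labels do not tie replicates to separate cultures, so p-values measure the spread between these libraries. In bulk RNA, fewer cells of a kind and less RNA per cell cannot be told apart.

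Subtelomeres are the stretches of chromosome next to the telomeric repeats. TRF2 is a protein of shelterin, the complex that caps telomeres, and it declines as fibroblasts approach senescence. Lamin B1 is a protein of the nuclear lamina, the meshwork beneath the nuclear envelope that anchors heterochromatin, and its loss is a widely used sign of senescence. The end of 9q is dense in short, GC-rich genes of unrelated families, with a cluster of lipocalins, small secreted carriers of lipophilic molecules, as its main gene family.

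Promoters of 3 genes are shown because these genes span the range of responses in the cells with TRF2. CACNA1B had the largest rise and lies nearest to the chromosome end, TRAF2 had the log2 fold change nearest to 0, and SAPCD2 had the largest fall. Each sequence is the RefSeq promoter on GRCh38.p14, from 250 bases before the gene start to 50 bases after it, written 5′ to 3′ along the gene, with every CG dinucleotide in capitals. Gene starts are those of RefSeq, and for TRAF2 this start lies inside the gene as GENCODE 44 places it (from position 136881912).
CACNA1B, chr9:137877532-137877831, plus strand: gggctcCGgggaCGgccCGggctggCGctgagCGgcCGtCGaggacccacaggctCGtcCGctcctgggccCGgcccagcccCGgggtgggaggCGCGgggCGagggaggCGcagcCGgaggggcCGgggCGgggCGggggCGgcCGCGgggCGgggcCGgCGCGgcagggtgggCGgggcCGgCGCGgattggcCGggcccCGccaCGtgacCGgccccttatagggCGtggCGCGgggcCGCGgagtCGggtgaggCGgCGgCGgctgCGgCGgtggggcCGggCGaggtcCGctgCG
TRAF2, chr9:136886266-136886565, plus strand: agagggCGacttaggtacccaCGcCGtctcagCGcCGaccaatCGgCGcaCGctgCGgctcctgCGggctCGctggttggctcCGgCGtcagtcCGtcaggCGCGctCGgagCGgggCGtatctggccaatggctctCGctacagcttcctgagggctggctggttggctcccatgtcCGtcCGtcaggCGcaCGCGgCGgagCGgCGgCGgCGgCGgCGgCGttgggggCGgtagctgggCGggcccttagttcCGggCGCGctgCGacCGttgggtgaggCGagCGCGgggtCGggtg
SAPCD2, chr9:137070508-137070807, minus strand: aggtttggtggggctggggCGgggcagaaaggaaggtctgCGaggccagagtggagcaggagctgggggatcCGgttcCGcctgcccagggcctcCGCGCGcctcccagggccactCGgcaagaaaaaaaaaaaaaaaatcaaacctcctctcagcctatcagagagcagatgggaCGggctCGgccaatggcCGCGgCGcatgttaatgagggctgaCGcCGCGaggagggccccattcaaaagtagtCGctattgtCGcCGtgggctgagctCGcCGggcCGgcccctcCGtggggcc

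The CACNA1B promoter held 49 CG dinucleotides and the TRAF2 promoter held 44, while the SAPCD2 promoter held 23 in the same 300 bases, beside a median of 22 over 15251 promoters of protein-coding genes. RefSeq promoters were found for 55 of the 67 genes. The letters GGGCGG, searched on both strands, stood in 42 of these 55 promoters (76.4%), against 59.3% of protein-coding promoters and 45.0% of all 35116 promoters of the table. GGGAGGG stood in 41.8% of the promoters at the end of 9q and in 30.6% of protein-coding promoters. TTAGGG, the letters of the telomeric repeat, stood in 5.45% and 8.74%. The median CG count was 35.5 in 18 promoters of genes upregulated in senescent cells with TRF2 and 38.5 in 22 promoters of tested genes not called there. It was 7 in 14 promoters of genes below the filter. No promoter entry was found for SNAPC4, the tested gene farthest from the end.

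Total counts per library ranged from 26725885 to 43116046. The targeted genes followed the labels. LMNB1 was at 59.7 ± 1.20 CPM in young empty cells and 2.67 ± 0.28 CPM with siLMNB1 (SD, n = 3), and at 5.13 and 3.34 CPM on average in senescent empty and senescent TRF2 cells. TERF2, the gene of TRF2, averaged 23.8 CPM in young empty and 25.0 CPM in senescent empty cells, 195 ± 97.7 CPM in young TRF2 cells and 235 ± 43.6 CPM in senescent TRF2 cells (SD, n = 3). All 10 fibroblast markers were found, with a summed level of 20224 to 33784 CPM. Summed levels of 7 epithelial markers were 32.8 to 42.7 CPM in young and 44.6 to 69.0 CPM in senescent libraries, with 1 of the markers at 0, and those of 5 endothelial markers 1.63 to 2.72 and 1.62 to 4.31 CPM. Those of 5 immune markers were 0.0881 to 0.712 and 1.52 to 3.98 CPM, with 1 at 0, and those of 4 neural markers 5.23 to 13.5 and 4.11 to 9.62 CPM. Their part in the results was not tested. Relative to young empty cells, log2 counts over all tested genes rose with GC content by -0.00633 to 0.134 per 10 percentage points in young libraries and by 0.460 to 0.506 in 5 senescent libraries. The slope was 0.823 in senescent empty replicate 3, whose label points to an original record apart from those of the other senescent libraries.

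This bears on the end of 9q, whose 47 tested genes had a median exonic GC content of 63.2% (53.8% to 72.6%), against 47.6% over 13185 tested protein-coding genes. For this reason every fit was repeated with offsets that remove each library's trend with GC content and length. Taken library by library against young empty cells, the median log2 difference over the 47 genes was -0.04, -0.06 and 0.02 in young TRF2 libraries and 0.03, 0.02 and 0.19 in siLMNB1 libraries. It was 0.89, 0.96 and 1.49 in senescent empty libraries and 0.95, 0.95 and 1.02 in senescent TRF2 libraries. The third senescent empty library thus stood above the other 5 senescent libraries at this chromosome end, as it did in its GC slope. Its part in the results was measured by leaving it out.

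**Figure D1:**
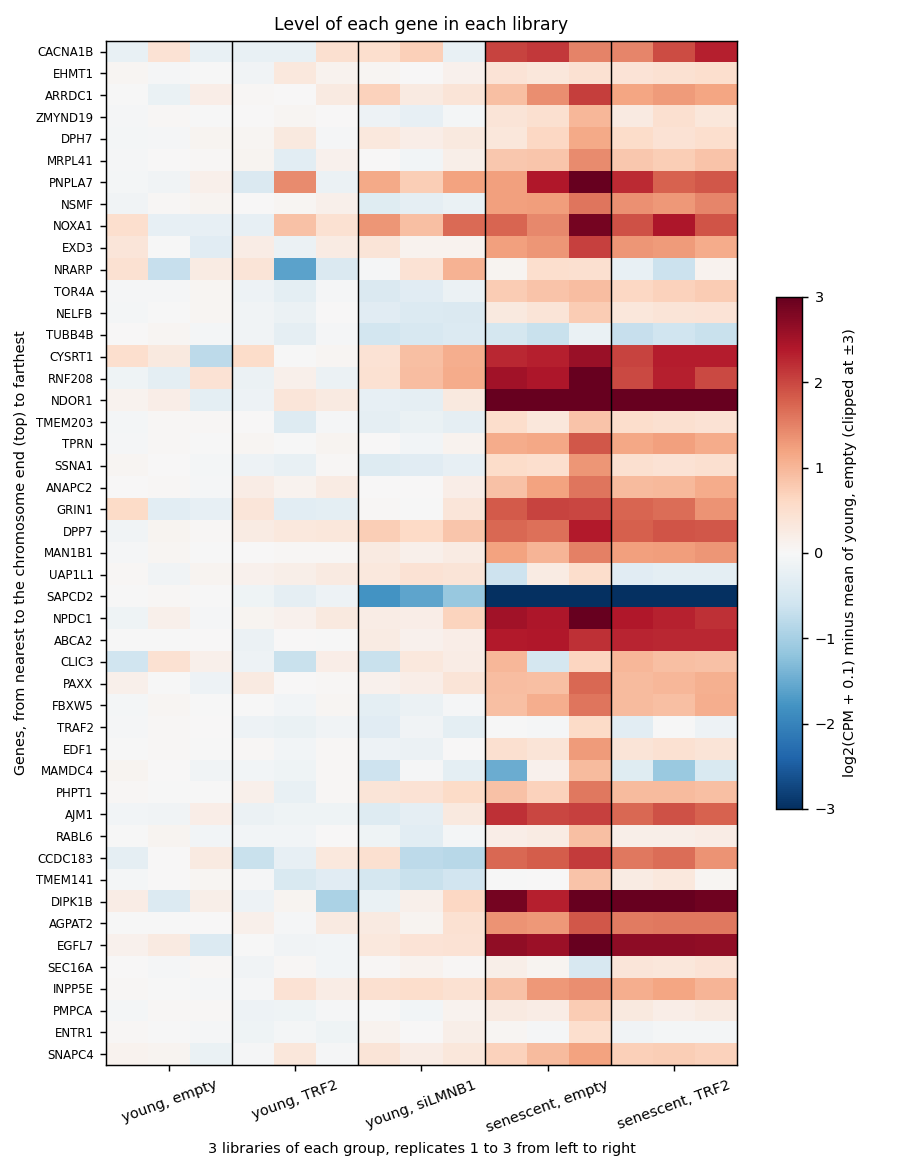
Each row is 1 of the 47 tested genes, in order from the chromosome end, and each column 1 of the 15 libraries. Colour gives log2(CPM + 0.1) minus the mean of the 3 young empty libraries, clipped at 3. Most rows are red in the 6 senescent libraries and pale in the 9 young ones, SAPCD2 is blue in the senescent and siLMNB1 libraries, and the third senescent empty column is the deepest red in most rows.

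In senescent against young cells with the empty vector, the contrast by which the end of 9q was picked, 26 of the 47 tested genes had a log2 fold change of at least 1 with an adjusted p below 0.05, where 15.2% of all tested protein-coding genes did. SAPCD2 alone met the same thresholds downwards, where 12.0% of all did. The median log2 fold change was 1.21 over the 47 genes and -0.04 over all tested protein-coding genes. With the offsets, 12 of the 47 met the upper thresholds, beside 9.40% of all, and the median was 0.20. Without senescent empty replicate 3, 23 met the upper thresholds, beside 12.4% of all, and FBXW5, MRPL41, PAXX and PHPT1 were no longer among them. These numbers describe how the region was chosen and were not tested.

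The libraries with TRF2 took no part in that choice, and in them genes at the end of 9q were again higher in senescent than in young cells. Of the 47 tested genes, 21 were upregulated at a log2 fold change of at least 1 and an adjusted p below 0.05 in edgeR's quasi-likelihood test, with p-values adjusted by Benjamini-Hochberg over 15799 genes. Among all tested protein-coding genes, 11.4% were upregulated by this rule. SAPCD2 was the only one of the 47 downregulated, where 11.8% of all were. The median log2 fold change of the 47 genes was 0.90, beside -0.03 over all tested protein-coding genes. Of the 21, CACNA1B, NOXA1, GRIN1 and CCDC183 would not have passed the filter in the 9 young libraries alone. Genes that enter through their senescent libraries had to differ, so no p is given for these 4 in this contrast, and the count over all 47 is not support by itself. Ranges and intervals given below for these 4 genes in this contrast are descriptions and test nothing. Among the other 43 genes, 17 were upregulated, beside 9.76% of the protein-coding genes that passed in the young libraries, with a median of 0.84. With the offsets, 7 of the 43 were, beside 7.12%. Without a fold threshold, 39 of the 47 were higher and 3 lower at an adjusted p below 0.05, beside 29.8% and 32.7% of all. Over all 47, the offsets left 11 of the 21 upregulated, beside 8.67% of all, 3 (SAPCD2, UAP1L1 and MAMDC4) were downregulated, beside 10.2% of all, and the median was 0.30.

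The 11 genes called with and without the offsets were ABCA2, CACNA1B, CCDC183, CYSRT1, DIPK1B, EGFL7, GRIN1, NDOR1, NOXA1, NPDC1 and RNF208. The other 10, AGPAT2, AJM1, ARRDC1, CLIC3, DPP7, EXD3, MAN1B1, NSMF, PNPLA7 and TPRN, were called only without them. In the empty vector and TRF2 contrasts, 20 genes met the upper thresholds in both, which is 20 of 26 and 20 of 21. The overlap over all tested protein-coding genes is not given here, and the empty vector contrast chose the region. Among the 20, CACNA1B, NOXA1, GRIN1 and CCDC183 entered through their senescent libraries, so this overlap is a description only. ANAPC2, FBXW5, INPP5E, MRPL41, PAXX and PHPT1 met the upper thresholds with the empty vector alone, and their log2 fold changes with TRF2 were 0.83 to 0.99. CLIC3 met them with TRF2 alone. Whether these 7 genes responded differently with TRF2 is asked by the interaction below, where none of the 47 passed. Not passing does not show an equal response. The interaction was 0.76 ± 0.63 for CLIC3 and -0.44 ± 0.19 for ANAPC2 (SE), and ANAPC2 passed when senescent empty replicate 1 was left out.

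**Figure D2:**
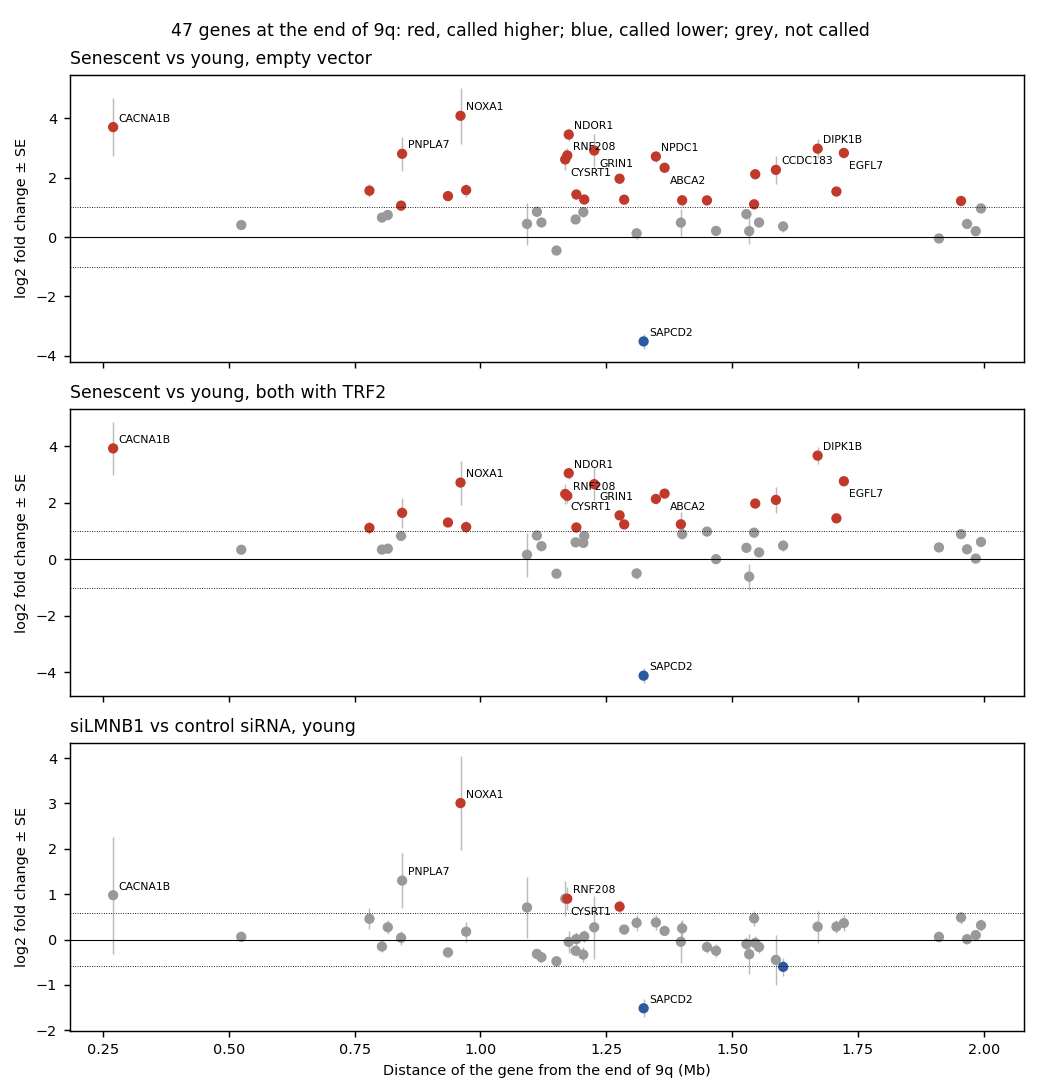
Log2 fold change with its standard error (y axis) of the 47 tested genes against distance from the end of 9q in Mb (x axis), for senescent against young cells with the empty vector, the same with TRF2, and siLMNB1 against control siRNA in young cells. Dotted lines mark the fold thresholds, at 1 in the upper panels and 0.58 in the lowest. Called genes (red, higher; blue, lower) lie among uncalled ones over the whole 2 Mb in the upper panels, and with siLMNB1 most genes lie near 0.

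Along the chromosome, upregulated genes were interspersed with others. CACNA1B, 0.27 Mb from the end, was the only tested gene of the first 0.5 Mb. Between 0.5 and 1 Mb, 5 of 9 tested genes were upregulated in senescent cells with TRF2 (median log2 fold change 1.12), between 1 and 1.5 Mb 10 of 22 (0.94), and between 1.5 and 2 Mb 5 of 15 (0.62). Among all tested protein-coding genes 11.4% were. NOXA1, GRIN1 and CCDC183, in turn, are in these counts and entered through their senescent libraries, as did CACNA1B. With the offsets the medians of these stretches were 0.50, 0.31 and 0.10. Of 14 tested genes between 2 and 4 Mb, 2 were upregulated, with a median of 0.51. Spearman's rho between log2 fold change and distance over the 47 genes, which share libraries and neighbourhood, was -0.08 in the TRF2 contrast and -0.18 in the other, while rho with exonic GC content was 0.41 and 0.37. Over all 13185 tested protein-coding genes, rho with GC content was 0.46 and 0.55. With the offsets, rho with GC content over the 47 genes was 0.19 and 0.09. In gene order the longest run of upregulated genes spanned 4 genes with TRF2, and it spanned 5 with the empty vector.

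Neighbours often differed. CYSRT1, RNF208 and NDOR1 follow each other at 1.17 to 1.18 Mb and had log2 fold changes with TRF2 of 2.32, 2.25 and 3.05, whereas the next gene, TMEM203 at 1.19 Mb, had 0.61. SAPCD2, at 1.32 Mb with -4.12, lies between UAP1L1 with -0.50 and, past ENTPD2, which is below the filter, NPDC1 with 2.14. Just inside the limit of 2 Mb, SNAPC4 (1.99 Mb), a subunit of the complex that starts small nuclear RNA transcription, had a log2 fold change of 0.96 with the empty vector and 0.62 with TRF2. Just outside it, CARD9 (2.02 Mb) had 1.04 ± 0.20 and 0.89 ± 0.19, and GPSM1 (2.04 Mb) 0.96 ± 0.11 and 0.71 ± 0.11 (SE). DNLZ (2.03 Mb) had -0.11 ± 0.72 and -0.19 ± 0.71. Its group means were 0.163 to 0.290 CPM, too low to tell whether it changed.

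Among the channels and solute carriers, all 3 tested genes were called upregulated in senescent cells with TRF2, and 2 of them with the offsets. CACNA1B and GRIN1 entered through their senescent libraries and CLIC3 lost its call in several fits, so this count is no support. Counts in this and the other role groups stand beside 11.4% of all tested protein-coding genes, and 8.67% with the offsets. CACNA1B (chr9:137877782-138124624, plus strand) encodes the pore of the N-type calcium channel of nerve endings. It was at 0, 0 and 0.0626 CPM in young TRF2 libraries and at 0.223, 0.350 and 0.484 CPM in senescent TRF2 libraries, which is 2 reads against 35 in sum. The ranges did not overlap, and the ratio of the summed counts was 18.3, with an exact 95% interval of 4.71 to 157 that covers counting error only. Since CACNA1B passed the filter through its senescent libraries, neither tests a difference. The fitted log2 fold change was 3.93 ± 0.94 (SE), and 6.53 without young TRF2 replicate 3, which held both young reads. With the empty vector, young libraries had 0, 0.0587 and 0 CPM and senescent ones 0.372, 0.407 and 0.227 CPM. The gene thus stayed near the limit of detection in all groups.

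GRIN1 (chr9:137138346-137168756, plus strand), the obligatory subunit of NMDA receptors, was at 0.109, 0.0297 and 0.0313 CPM in young TRF2 libraries and at 0.446, 0.414 and 0.313 CPM in senescent TRF2 libraries. Its summed counts of 6 and 38 gave a ratio of 6.63 (exact 95% interval 2.78 to 19.2) and a log2 fold change of 2.66 ± 0.56 (SE). As GRIN1 entered through its senescent libraries, these values are a description only. In cells with the empty vector it was at 0.139, 0.0294 and 0.0372 CPM in young libraries and at 0.483, 0.556 and 0.551 CPM in senescent ones. CLIC3, of the chloride intracellular channel family, had a log2 fold change of 1.24 ± 0.44 with TRF2 (adjusted p = 0.024, edgeR's quasi-likelihood test). Its call was lost when any of 4 of the 6 libraries compared was left out (young TRF2 replicates 1 and 2, senescent TRF2 replicates 1 and 2). SLC34A3, a sodium-phosphate cotransporter known from the kidney, and LRRC26, an accessory subunit of potassium channels, were below the filter. SLC34A3 had 26 reads in senescent TRF2 and 4 in young TRF2 libraries, a ratio of 6.80 (exact 95% interval 2.36 to 26.8).

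Of 4 genes of lipid enzymes and transporters, all tested, 3 were upregulated in senescent cells with TRF2, and 1 with the offsets. ABCA2 (chr9:137007234-137028915, minus strand) is a transporter of endosomes and lysosomes that takes part in cholesterol and sphingolipid handling. It was at 24.3, 28.0 and 27.3 CPM in young TRF2 and at 135, 133 and 132 CPM in senescent TRF2 libraries, and at 27.5, 27.2 and 27.8 CPM in young empty and 144, 145 and 125 CPM in senescent empty libraries. Each senescent library lay far above each young one, and the log2 fold change was 2.33 ± 0.09 (SE) with either vector. The adjusted p with TRF2 was 1.5e-12 (edgeR's quasi-likelihood test). With the offsets the values were 1.28 for the empty vector and 1.45 for TRF2. Unlike most genes here, ABCA2 was lower in senescent empty replicate 3 than in the other 2.

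PNPLA7 (chr9:137459952-137550402, minus strand), a lysophospholipase of the endoplasmic reticulum and lipid droplets, was at 0.163, 0.861 and 0.219 CPM in young TRF2 and at 1.59, 1.11 and 1.20 CPM in senescent TRF2 libraries. The second young TRF2 library was high but stayed below the senescent ones. The log2 fold change was 1.65 ± 0.52 (adjusted p = 0.013, edgeR's quasi-likelihood test). Without young TRF2 replicate 1 the adjusted p was 0.0663, and without replicate 3 it was 0.0577. The log2 fold change was 2.75 without young TRF2 replicate 2 and 0.93 with the offsets. Under the empty vector the young libraries had 0.244, 0.235 and 0.298 CPM and the senescent ones 0.744, 1.78 and 2.88 CPM, with 1.86 as the log2 fold change under the offsets. AGPAT2, which makes phosphatidic acid, had a log2 fold change of 1.45 ± 0.14 with TRF2. INPP5E, a phosphoinositide phosphatase of the primary cilium, was not called with TRF2 at 0.89 ± 0.13.

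Among 8 signalling genes, all tested, 5 were upregulated in senescent cells with TRF2, and 3 with the offsets. DIPK1B (chr9:136712572-136724742, plus strand), a kinase-like protein of the endoplasmic reticulum membrane, was at 0.516, 0.623 and 0.251 CPM in young TRF2 and at 6.12, 6.85 and 5.07 CPM in senescent TRF2 libraries. Its log2 fold change was 3.67 ± 0.31 (adjusted p = 4.2e-08, edgeR's quasi-likelihood test). For the empty vector it was at 0.697, 0.411 and 0.670 CPM in young and at 4.91, 3.33 and 5.57 CPM in senescent libraries. It shares 43.7% of its exonic bases with SNHG7, a noncoding gene on the opposite strand with summed counts of 1012 in young TRF2 and 2044 in senescent TRF2 libraries. Since the strand used for counting is not given in the sources used here, reads of this pair cannot be told apart.

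EGFL7 (chr9:136658856-136672678, plus strand), a secreted factor best known from endothelial cells and the host gene of a microRNA, was at 6.09, 5.70 and 5.79 CPM in young TRF2 and at 40.3, 39.9 and 39.6 CPM in senescent TRF2 libraries. The libraries of each group lay close together, and the log2 fold change was 2.77 ± 0.17 (adjusted p = 1.1e-09, edgeR's quasi-likelihood test). In the empty vector libraries it was at 6.76, 7.46 and 4.61 CPM in young and at 39.2, 36.9 and 58.2 CPM in senescent libraries. NPDC1 (chr9:137039463-137046179, minus strand), a membrane protein named for control of neural proliferation and differentiation, was at 15.5, 16.2 and 17.9 CPM in young TRF2 and at 78.3, 72.8 and 67.6 CPM in senescent TRF2 libraries. Its log2 fold change was 2.14 ± 0.17 (adjusted p = 1.4e-08, edgeR's quasi-likelihood test). Without added TRF2 the young libraries had 13.5, 16.4 and 14.4 CPM and the senescent ones 84.4, 78.9 and 125 CPM, a log2 fold change of 1.65 with the offsets.

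NSMF, a messenger from synapse to nucleus, and ARRDC1, an arrestin-like protein of extracellular vesicles, were upregulated in senescent cells with TRF2 at 1.31 ± 0.10 and 1.12 ± 0.22. TRAF2, an adaptor of tumour necrosis factor receptors, was at 11.1, 10.7 and 11.5 CPM in young TRF2 and at 10.0, 12.4 and 11.2 CPM in senescent TRF2 libraries, ranges that overlapped. NRARP, a feedback inhibitor of Notch signalling, and RABL6, a GTPase, were not called at 0.16 ± 0.77 and 0.25 ± 0.14.

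Of 6 genes of mitochondria, redox reactions and translation, all tested, 2 were upregulated in senescent cells with TRF2, also with the offsets. NDOR1 (chr9:137205685-137219361, plus strand) is a flavoprotein reductase that passes electrons to the assembly of cytosolic iron-sulfur clusters. It was at 1.28, 1.87 and 1.75 CPM in young TRF2 and at 13.9, 14.6 and 12.2 CPM in senescent TRF2 libraries, a log2 fold change of 3.05 ± 0.20 (adjusted p = 2.3e-09, edgeR's quasi-likelihood test). With the empty vector it was at 1.53, 1.64 and 1.15 CPM in young and at 12.4, 16.8 and 18.4 CPM in senescent libraries. An overlapping annotated gene not analysed here shares 36.0% of its exonic bases.

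NOXA1 (chr9:137423350-137434406, plus strand), an activator of NADPH oxidase, was at 0, 0.119 and 0.0626 CPM in young TRF2 and at 0.351, 0.541 and 0.342 CPM in senescent TRF2 libraries. These were 6 and 40 reads in sum, a ratio of 6.98 (exact 95% interval 2.94 to 20.1), with a log2 fold change of 2.72 ± 0.78. As NOXA1 entered through its senescent libraries, these values are a description only. MRPL41, a protein of the mitochondrial ribosome, and PHPT1, a protein histidine phosphatase, were higher in senescent than in young cells with TRF2 by 0.83 and 0.95. DPH7, of diphthamide synthesis, and PMPCA, of the peptidase that trims mitochondrial proteins, were higher by 0.38 and 0.36. All of these values lie below the fold threshold. For PHPT1, 39.8% of the exonic bases also belong to other genes.

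**Figure D3:**
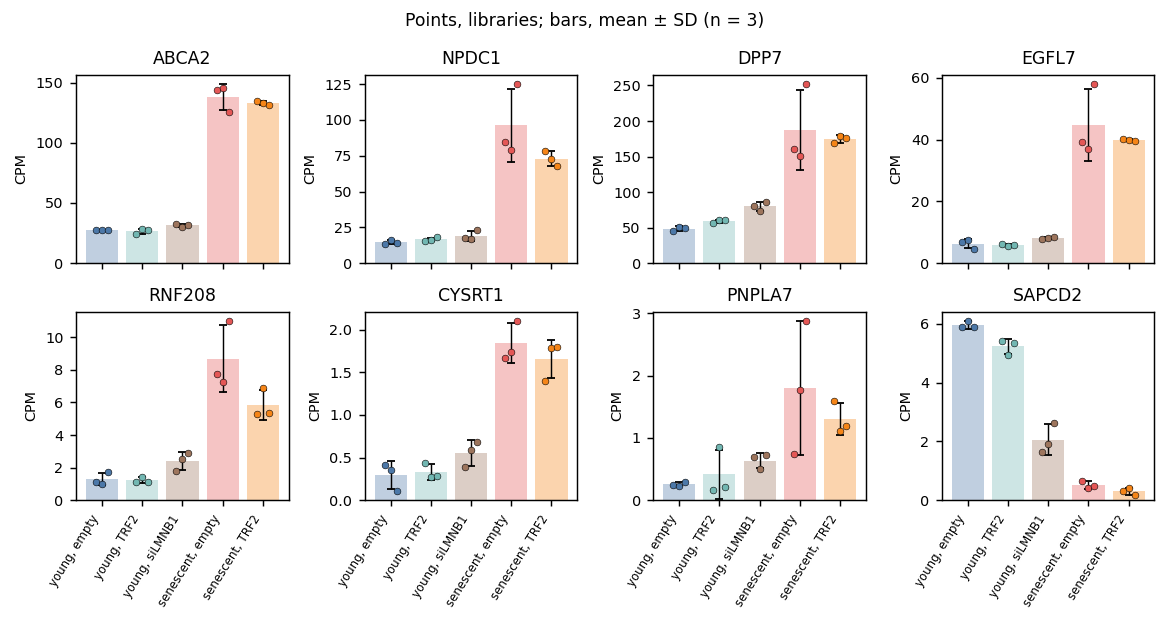
Level in CPM (y axis, from 0) of 8 genes in the 5 groups (x axis). Points are libraries and bars give the mean ± SD (n = 3). The first 7 genes are higher in senescent groups than in young empty and young TRF2 groups, and SAPCD2 falls from 5.96 CPM in young empty to 2.06 CPM with siLMNB1 and 0.301 CPM in senescent TRF2 cells.

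In the secretory pathway, lysosome and cell surface, 2 of 6 tested genes of 9 were upregulated in senescent cells with TRF2, and 0 with the offsets. DPP7 (chr9:137110542-137118309, minus strand), a lysosomal dipeptidyl peptidase known from the survival of quiescent lymphocytes, was at 56.9, 60.0 and 60.8 CPM in young TRF2 and at 168, 180 and 176 CPM in senescent TRF2 libraries. Its log2 fold change was 1.56 ± 0.15 (adjusted p = 1.7e-07, edgeR's quasi-likelihood test) and 0.81 with the offsets, below the fold threshold. Under the empty vector it was at 44.6, 51.1 and 49.2 CPM in young and at 160, 151 and 253 CPM in senescent libraries, a log2 fold change of 0.88 with the offsets. MAN1B1, a mannosidase of glycoprotein quality control, was upregulated at 1.24 ± 0.10. TOR4A, a torsin ATPase, rose by less than the threshold at 0.84 ± 0.09. UAP1L1, a relative of a sugar-nucleotide enzyme, had -0.50 ± 0.18, and MAMDC4, a membrane protein, -0.61 ± 0.46. ENTPD8, ENTPD2 and FUT7 were below the filter, and FUT7 had 0 reads in all 15 libraries.

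Among 8 genes of the cytoskeleton, centrosome and cilia, 6 were tested and 3 upregulated in senescent cells with TRF2, with 1 left by the offsets. AJM1, of epithelial apical junctions, was at 1.98 ± 0.16 and TPRN, of the base of hair cell stereocilia, at 1.13 ± 0.15. CCDC183, at 2.11 ± 0.47, entered through its senescent libraries and alone kept its call with the offsets. Other genes overlap 73.6% of the exonic bases of CCDC183. TUBB4B (chr9:137241287-137243707, plus strand), a beta-tubulin, had the highest level per kilobase of exons of the 47 genes in young empty cells, at 260 CPM per kb, followed by the coactivator EDF1 at 158 and MRPL41 at 86.6. In senescent empty cells EDF1 was above it, at 269 against 190 CPM per kb, and so it was with TRF2, at 209 against 166. EDF1 was at 198, 182 and 198 CPM in young TRF2 and at 251, 263 and 253 CPM in senescent TRF2 libraries, and MRPL41 at 53.0, 40.3 and 55.0 and at 87.8, 84.6 and 91.3 CPM. TUBB4B was lower in senescent cells, at 490, 439 and 516 CPM in young TRF2 and 330, 351 and 335 CPM in senescent TRF2 libraries, a log2 fold change of -0.51 ± 0.10 (adjusted p = 0.00048, edgeR's quasi-likelihood test) that did not reach the fold threshold. SSNA1, a centriole protein, rose by less than the threshold at 0.58 ± 0.16, and ENTR1, of endosomal sorting, had 0.03 ± 0.12. STPG3 and FAM166A were below the filter.

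The 9 genes of transcription, chromatin, DNA repair and cell division were all tested, and SAPCD2 (chr9:137062127-137070557, minus strand), a polarity protein that orients the mitotic spindle, was the single one called with TRF2. It was at 5.41, 4.93 and 5.35 CPM in young TRF2 and at 0.319, 0.414 and 0.171 CPM in senescent TRF2 libraries, a log2 fold change of -4.12 ± 0.26 (adjusted p = 1.5e-09, edgeR's quasi-likelihood test). For the empty vector it was at 5.89, 6.11 and 5.88 CPM in young and at 0.669, 0.407 and 0.486 CPM in senescent libraries. EHMT1, a histone methyltransferase of euchromatin, NELFB, of the complex that pauses RNA polymerase, ANAPC2, the cullin of the anaphase-promoting complex, and PAXX, of end joining, had 0.34, 0.47, 0.83 and 0.90 with TRF2. ZMYND19, the ubiquitin ligase adaptor FBXW5 and EDF1 had 0.35, 0.99 and 0.41. Each of these 7 passed the adjusted p without reaching the fold threshold.

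Of the remaining 11 genes, 5 were tested and 3 upregulated in senescent cells with TRF2, and 2 with the offsets. RNF208 (chr9:137220247-137222240, minus strand), a ubiquitin ligase, was at 1.11, 1.42 and 1.13 CPM in young TRF2 and at 5.29, 6.88 and 5.33 CPM in senescent TRF2 libraries (log2 fold change 2.25 ± 0.24, adjusted p = 6.7e-07, edgeR's quasi-likelihood test). In the empty vector libraries it was at 1.15, 1.03 and 1.75 CPM in young and at 7.77, 7.26 and 11.0 CPM in senescent libraries. With the offsets the log2 fold changes were 1.35 for the empty vector and 1.29 for TRF2. CYSRT1 (chr9:137225174-137226315, plus strand), a small protein with a cysteine-rich tail, was at 0.435, 0.267 and 0.282 CPM in young TRF2 and at 1.40, 1.78 and 1.80 CPM in senescent TRF2 libraries (2.32 ± 0.35, adjusted p = 2.7e-05, edgeR's quasi-likelihood test). Without added TRF2 it was at 0.418, 0.352 and 0.112 CPM in young and at 1.67, 1.74 and 2.11 CPM in senescent libraries, a log2 fold change of 1.44 with the offsets. EXD3 was upregulated at 1.14 ± 0.21. The primers of the study cover ABCA2, NPDC1, SAPCD2, DPP7, RNF208, CYSRT1 and PNPLA7, which were chosen on these samples and are no independent evidence of direction.

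All 7 lipocalin-family genes were below the filter. C8G, the gamma chain of a complement component, had 10 reads in young TRF2 and 17 in senescent TRF2 libraries, and LCNL1 had 13 and 10. Their ratios with TRF2 were 1.78 (exact 95% interval 0.769 to 4.35) and 0.805 (0.316 to 1.99). With the empty vector C8G had 2 and 20 reads, a ratio of 10.6, and LCNL1 had 4 and 29, a ratio of 7.67. That contrast chose the region, so these 2 ratios are descriptions and test nothing. For LCNL1 the libraries overlapped, with 4, 0 and 0 reads in young empty and 0, 10 and 19 in senescent empty libraries. LCN12 and LCN15 had at most 4 reads in any group, and LCN6, LCN8 and LCN10 had 0. Over the 20 genes below the filter, the highest count in a library was 19 and the highest level 0.616 CPM, and 8 had 0 reads in all 15 libraries. A count of 0 allows up to 3 reads per library, counting error only. Of these 8, 4 are unnamed entries whose exonic bases all lie in other genes. RNF224, a RING finger gene beside RNF208, had 0 reads in young TRF2 and 10 in senescent TRF2 libraries, and the exact lower 95% limit of their ratio was 2.35. By GENCODE 44, the exons of 27 of the 47 tested genes are free of overlap with other genes. Of these 27, 11 were upregulated with TRF2, beside 11.4% of all tested protein-coding genes, with or without overlap. Among the 11, ABCA2, CYSRT1, EGFL7, GRIN1 and RNF208 kept their calls with the offsets, where 8.67% of all were called. GRIN1 entered through its senescent libraries, so this count is a description only.

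**Figure D4:**
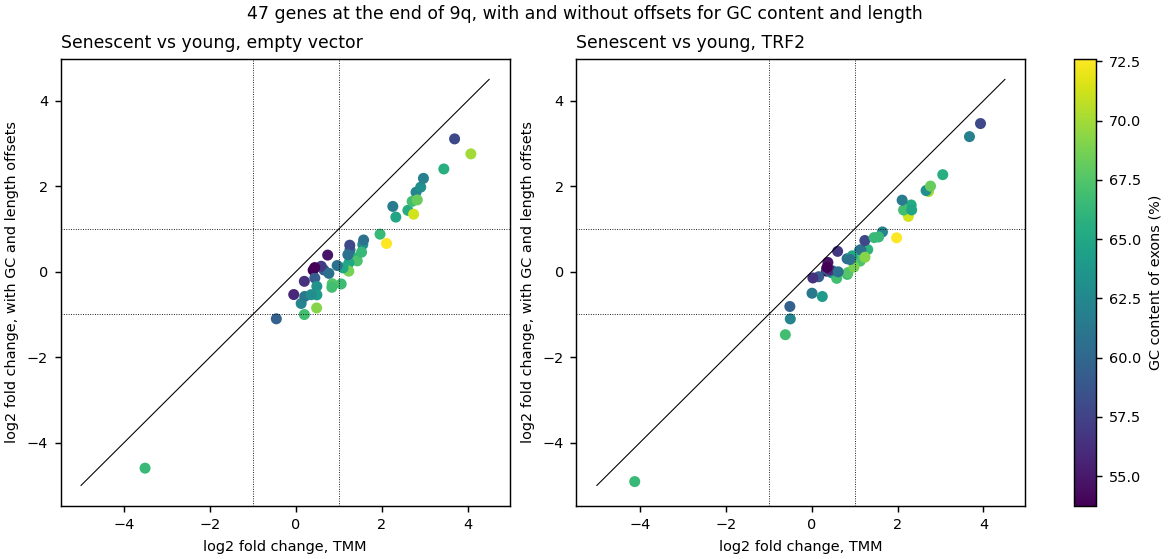
Log2 fold change of the 47 tested genes with TMM alone (x axis) and with offsets for GC content and length (y axis), senescent against young, with the empty vector (left) and TRF2 (right). Colour gives exonic GC content in percent, dotted lines mark fold thresholds at 1 and -1, and the diagonal marks equality. All 47 points lie below the diagonal in both panels.

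Spearman's rho between the level per kilobase in young empty cells and the log2 fold change with TRF2 was -0.44 over the 47 genes. These measures come from different libraries. The 4 genes that entered through their senescent libraries are among the 47, and they had to be low in young cells and higher in senescent ones. Their entry adds to a negative rho and no value without them is given, so no relation is read from it.

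Knockdown of Lamin B1 in young cells shares its young empty libraries with the empty vector contrast. With siLMNB1, 3 of the 47 genes were upregulated at a log2 fold change of at least 0.58 and an adjusted p below 0.05 in edgeR's quasi-likelihood test, where 10.0% of all tested protein-coding genes were, and 2 were downregulated, where 8.71% were. The share of upregulated genes was thus not above the background. The median was 0.07, beside 0.02 over all. The upregulated genes were NOXA1, RNF208 and DPP7, and the downregulated ones SAPCD2 and TMEM141. With the offsets, 1 gene (NOXA1) was upregulated, beside 8.32% of all, and 4 were downregulated, beside 10.9% of all, and the median turned to -0.05.

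DPP7 was at 79.9, 73.4 and 86.4 CPM with siLMNB1 against 44.6, 51.1 and 49.2 CPM in young empty cells, without overlap (0.73 ± 0.15, adjusted p = 0.0013, edgeR's quasi-likelihood test). Its call was kept whichever 1 of the 6 libraries was left out, and its value with the offsets was 0.52. RNF208 was at 1.80, 2.50 and 2.90 CPM with siLMNB1 (0.90 ± 0.25, adjusted p = 0.012, edgeR's quasi-likelihood test), and its adjusted p was 0.0655 without young empty replicate 2 and 0.0665 without siLMNB1 replicate 3. With the offsets its value was 0.53. NOXA1 had 6, 4 and 13 reads with siLMNB1 against 2, 0 and 0 in young empty cells. The ratio was 9.51 (exact 95% interval 2.35 to 83.2) and the log2 fold change 3.01 ± 1.03 (adjusted p = 0.035, edgeR's quasi-likelihood test). Its call was lost without young empty replicate 2 or 3 or siLMNB1 replicate 1 or 3, with adjusted p up to 0.131, and its log2 fold change was 5.78 without young empty replicate 1.

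SAPCD2 was at 1.64, 1.92 and 2.64 CPM with siLMNB1, all below the young empty libraries (-1.51 ± 0.20, adjusted p = 3.5e-05, edgeR's quasi-likelihood test), and its call was kept whichever 1 of the 6 libraries was left out. A noncoding gene on the opposite strand shares 19.6% of its exonic bases and had 0 reads. TMEM141 (chr9:136791344-136793317, plus strand), a small membrane protein, was at 6.52, 6.81 and 7.11 CPM in young empty cells and at 4.69, 4.24 and 4.55 CPM with siLMNB1 (-0.60 ± 0.20, adjusted p = 0.030, edgeR's quasi-likelihood test), and its call was lost when any 1 of the 6 libraries was left out. In senescent cells it was at 6.77, 6.89 and 12.4 CPM with the empty vector and at 8.13, 8.44 and 7.15 CPM with TRF2. Set side by side, the 5 genes called with siLMNB1 had log2 fold changes in senescent cells with TRF2 of 2.72 (NOXA1), 2.25 (RNF208), 1.56 (DPP7), -4.12 (SAPCD2) and 0.49 (TMEM141).

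TRF2 in young cells, set against the same young empty libraries, changed 0 of the 47 genes at an adjusted p below 0.05 in edgeR's quasi-likelihood test, with 0 at an unadjusted p below 0.05 and 0 in DESeq2. Of all tested protein-coding genes, 0.197% were called. In senescent cells, TRF2 changed 1 of the 47 genes, beside 12.5% of all. This was SEC16A (chr9:136440096-136483759, minus strand), which organises the exit sites of the endoplasmic reticulum, at 160, 151 and 102 CPM in senescent empty and 184, 179 and 189 CPM in senescent TRF2 libraries (0.42 ± 0.12, adjusted p = 0.035, edgeR's quasi-likelihood test). The third senescent empty library was the lowest. SEC16A was still called without that library, at 0.25, and lost when any of the senescent TRF2 libraries was left out.

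The other genes at the end of 9q tended to be slightly lower with TRF2 in senescent cells. The log2 difference was negative for 39 of the 47, with a median of -0.24, beside -0.01 over all tested protein-coding genes, and 11 had an unadjusted p below 0.05. Without senescent empty replicate 3 the median was -0.02 and 26 of 48 tested genes were negative, and with the offsets and all libraries the median was also -0.02. Without senescent empty replicate 1, by contrast, 16 of 49 tested genes were called, beside 30.8% of all, and the median was -0.35.

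The interaction asks whether senescence changed a gene by a different amount with TRF2. In edgeR's quasi-likelihood test 0 of the 47 genes passed an adjusted p of 0.05, beside 1.24% of all tested protein-coding genes, with 4 at an unadjusted p below 0.05 and 0 in DESeq2. The median interaction was -0.24 on the log2 scale. It was -0.0047 without senescent empty replicate 3 and 0.08 with the offsets. For the largest rises the interaction was 0.24 ± 1.65 for CACNA1B, 0.70 ± 0.46 for DIPK1B and -0.39 ± 0.29 for NDOR1 (SE). It was -0.06 ± 0.24 for EGFL7, -1.36 ± 1.40 for NOXA1 and -0.24 ± 0.93 for GRIN1. For ABCA2, with a smaller rise, it was 0.00 ± 0.12. The precision was thus high for ABCA2 and too low for CACNA1B, NOXA1 and GRIN1 to tell a difference of 1 on that scale from 0.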

How the data were processed

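The authors trimmed reads of 15 MRC-5 libraries with Trimmomatic (minimum length 35), aligned them to GRCh38 with STAR and deposited whole-number counts of reads per gene, without normalization. The annotation release and strand setting are not given in the sources used here. Groups came from the labels. Genes were placed with GENCODE 44. After TMM normalization and filterByExpr (15799 genes kept), counts were modelled in edgeR 4.0.16 (R 4.3.3) with a mean per group over all libraries. Its quasi-likelihood test gave p-values, adjusted by Benjamini-Hochberg over these genes. Standard errors (SE) were derived from that test, as the absolute log2 fold change divided by the square root of the F statistic. Offsets came from loess curves (span 0.3, prior count 1) of each library on GC content and length. Intervals and floors (95%, 3 counts) cover counting error only. The steps were tested on simulated data. The genes and lists were chosen with earlier results of these data known. Values by library are given for genes with primers in the study, the 6 largest rises and 3 largest falls called with TRF2, up to 3 each way called with siLMNB1 or for TRF2, and genes of highest level per length; TRAF2 was added after its values were seen. Alternatives were DESeq2 1.42.0, RLE factors, no filter, no fold threshold, a fit of the compared groups alone, the offsets, a block for the replicate number and each library left out.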

Additional observations from a re-analysis of the deposited data

How the results depend on the processing

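With offsets for GC content and length, genes met the upper thresholds in numbers of 12 rather than 26 (empty vector, median log2 fold change 0.20), 11 rather than 21 (TRF2, median 0.30) and 1 rather than 3 (siLMNB1), with 4 rather than 2 downregulated and a reversed median of -0.051. Between senescent TRF2 and senescent empty cells, 2 genes then differed. Same-numbered libraries showed little shared deviation (correlations from -0.09 to 0.20). With groups of 3 this cannot show whether they share a culture or batch, and the labels do not say. A replicate block with the offsets gave 12 and a median of 0.21, 11 and 0.30, and, with siLMNB1, 0 up, 4 down and a median of -0.053, and 2 genes for TRF2 in senescent cells; the block alone gave values close to those without it. Without a fold threshold, 39 genes were higher in senescent than in young cells with TRF2, and 5 rose and 6 fell with siLMNB1. Without the filter, the median with TRF2 was 1.12, and 6 genes were called for TRF2 in senescent cells and 2 for the interaction. With only the libraries compared, 1 gene was called for TRF2 in young cells (DPP7) and 0 in senescent cells. The causes of these changes were not tested, beyond the smaller or larger sets of genes and libraries in each fit.

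Leaving out a library in turn gave 23 to 29 genes (empty vector, median 0.93 to 1.35), 21 to 22 (TRF2, median 0.85 to 0.97), 1 to 3 up and 1 to 1 down (siLMNB1, median 0.03 to 0.14), 0 to 0 (TRF2, young), 0 to 16 (TRF2, senescent) and 0 to 3 (interaction). With siLMNB1, 1 gene was up without young empty replicate 2 or siLMNB1 replicate 3 and 2 without young empty replicate 3 or siLMNB1 replicate 1. For TRF2 in senescent cells, 16 genes were called without senescent empty replicate 1, 3 without replicate 2 and 0 without any senescent TRF2 library. For the interaction, 3 were called without senescent empty replicate 1 and 1 without replicate 3. Genes that pass the filter in the young libraries alone (a choice made once values were seen) gave 22 and 17. DESeq2 and RLE factors changed no count by over 1.5 times. For single genes, 212 of 234 alternative values kept direction and call, 22 lost the call and 0 reversed. Low counts limit CACNA1B, NOXA1, GRIN1 and the genes below the filter.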
